A study of Ovis aries with 15 samples.

Results

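The glycolytic and glycogen enzymes of sheep longissimus dorsi (LD) muscle, the long back muscle, were followed over 5 developmental stages. The set held 38 genes, listed by their place in glycolysis, lactate and glycerol phosphate formation, or glycogen turnover. A gene was represented by the probe set that carried its symbol alone and, among several, by the brightest in mean log2 signal over all 15 arrays. On this basis 31 of the 38 genes had a probe set, and HK2, BPGM, PGM2, GYS1, PHKA1, PHKB and PHKG1 had none. Of these 31 genes, 29 reached a signal of 50 on 3 or more arrays and were tested among 15998 probe sets. ENO2 and PHKA2 lay below that level and were not tested. The whole array held 9155 genes named by a probe set of a single symbol, of which 7553 were tested.

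LD muscle had been taken from 3 fetuses each at 80 d, 100 d and 120 d of gestation, from 3 newborn lambs 1 to 3 days after birth (150 d of development) and from 3 lambs at 12 weeks of age (230 d of development). All came from a Dorset/Suffolk/Rambouillet cross-bred flock, with no treatment given in the labels, and were different animals at each stage. The 100 d and 120 d groups each held 1 female and 2 males and the other groups were male. Total RNA of each animal was hybridised to an Affymetrix bovine array, so sheep transcripts were read by probes designed on cattle sequence and levels were not compared between probe sets.

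Glycolysis splits glucose to pyruvate in the cytosol, and muscle can draw on it faster than on oxidation in mitochondria. Glycogen, a branched glucose polymer, is the local store, built by glycogen synthase and the branching enzyme on a glycogenin core and released by glycogen phosphorylase. Several steps are catalysed by tissue-specific isoenzymes, and maturing skeletal muscle is known for forms encoded by genes such as PFKM, PGAM2, ENO3 and PYGM, whereas ubiquitous forms such as PGAM1 and ENO1 are found in most tissues.

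Changes between stages were tested with limma on log2 MAS5 signals (arbitrary units) of all 15998 probe sets, and a call required an adjusted p (Benjamini-Hochberg, over all of them) under 0.01. The 3' to 5' signal ratio of the actin control, which depends on RNA integrity and labelling, was 1.89 ± 0.289 (SD, n = 3) at 80 d, 1.53 ± 0.235 at 100 d and between 0.910 and 1.03 in the means of the later stages. The spiked hybridisation controls read higher on the postnatal arrays, with stage means of 991 to 1148 before birth and 1570.2 and 1856 after it. Of the 7 striated muscle markers tested, 7 were higher after birth, with a median log2 fold change of 1.10, and their summed signal ranged from 73227 to 98370.5 at 80 d and from 206283 to 284014 at 230 d. The slow fibre markers (5 of 5) and the fast fibre markers (4 of 4) were higher too. MYLPF, TNNT3, TNNI2 and TNNC2 were listed as both striated muscle and fast fibre markers, so those counts are not separate. The summed signal of 3 adipocyte markers, of which 1 was higher, ranged from 122 to 301 at 120 d, from 664 to 1202 at 150 d and from 229.8 to 536 at 230 d. Of 6 fibroblast markers 3 were lower after birth, as were 3 of 5 endothelial and 2 of 2 Schwann or nerve markers. Lower too were 2 of 4 erythroid markers, against 0 of 3 leukocyte markers. Over all probe sets 13.3% were higher and 21.3% lower after birth. The summed erythroid signal was 14432 to 24367 at 80 d and 151 to 183 at 230 d. None of the listed defining markers of muscle lay under 50 throughout a stage. The part of these shifts in the results was not tested, and in whole muscle fewer cells of a type and less RNA per cell cannot be told apart.

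Taken over birth as a whole, with the mean of the 2 postnatal stages set against the mean of the 3 fetal stages, 18 of the 29 enzymes rose and none fell, where 13.3% of all probe sets rose and 21.3% fell. The median log2 fold change of the 29 was 1.53 against -0.13 over all probe sets. Of the muscle isoenzymes 6 of 6 rose (median 2.01), as did 12 of the 14 enzymes outside the muscle and ubiquitous lists (median 2.10). One of these 12, GBE1, passed the filter only through its postnatal arrays, which favours its call. The counts and medians given here include it, and 17 risers remain without it. None of the 9 ubiquitous or other-tissue isoenzymes was called in either direction, and their median was -0.32. Every postnatal array lay above every fetal array for 15 of the 29, all of them risers, against 6.78% of all probe sets. The reverse held for 0 of the 29, against 10.5%. Among the risers the arrays of PKM, GBE1 and PPP1R3C overlapped. The counts depended in part on the scaling. With arrays scaled to the hybridisation controls, 16 of the 29 rose and 5 fell. This alternative, chosen after seeing the data, shifted the median of all probe sets to -0.84. The fallers were PFKL, PFKP, LDHB, PYGB and PYGL. PYGB passed the filter only through its fetal arrays, which favours its fall. Over the whole array this scaling gave 631 higher and 8108 lower, where the deposited scaling gave 2121 and 3400.

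Of the 4 neighbouring intervals, the one across birth held most of the calls. No stage lay between 120 d and 150 d, so changes across birth cannot be placed before, at or after it. Between 120 d and 150 d 10 of the 29 rose and none fell, against 4.41% and 6.77% of all probe sets, and the median change was 0.79 against -0.15. No enzyme passed the test between 80 d and 100 d, where 0.106% of probe sets rose and 0.0188% fell, or between 100 d and 120 d, where 0.0375% rose and 0.0188% fell, although 6 and 12 of the 29 respectively had an unadjusted p under 0.05, all of them upward. Across the whole fetal span from 80 d to 120 d 10 enzymes rose and none fell, against 0.931% and 0.381% of all probe sets (medians 0.79 and -0.02). From 150 d to 230 d 1 enzyme rose and 2 fell, against 0.944% and 1.08% of all probe sets. Arrays of the later stage lay wholly above those of the earlier one for 12 of the 29 between 80 d and 100 d (10.1% of all probe sets), 14 between 100 d and 120 d (6.88%), 17 across birth (14.3%), 5 from 150 d to 230 d (14%) and 15 over the fetal span (12.5%). They lay wholly below for 1, 0, 1, 4 and 2 of the 29 in these comparisons, against 8.96%, 9.09%, 22.9%, 9.93% and 14.2% of all probe sets. In the 4 neighbouring intervals together 12 of the 29 were called at least once, against 12.6% of all probe sets.

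**Figure D1:**
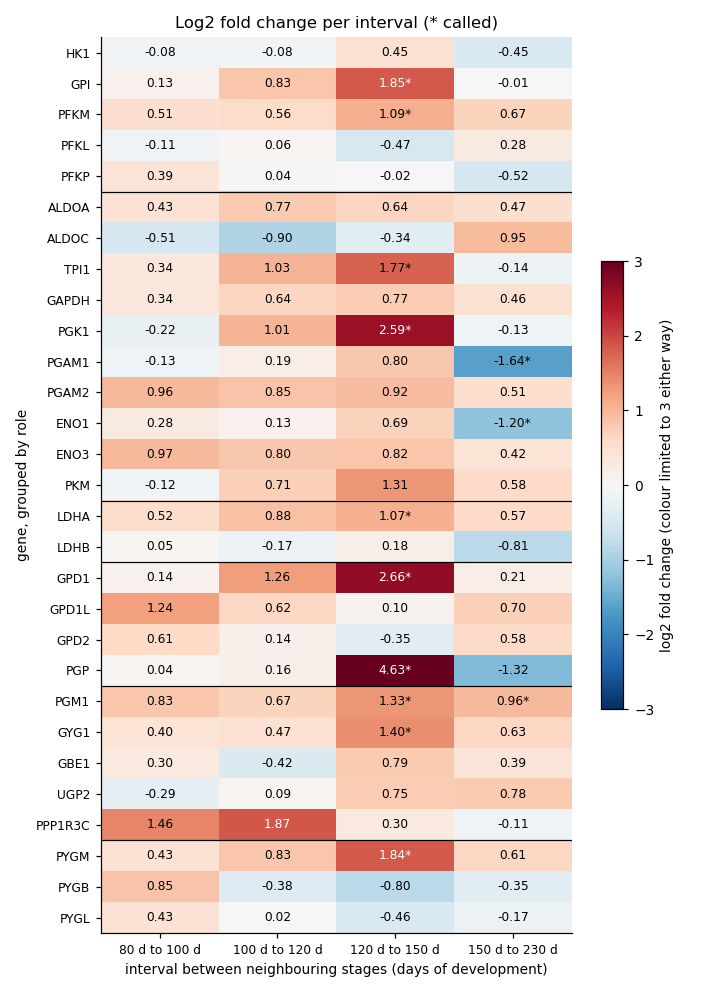
Log2 fold change of the 29 tested enzymes (rows, grouped by role) over the 4 intervals between neighbouring stages (columns), from 3 arrays per stage, with the value printed in each cell and * for an adjusted p under 0.01. The 10 marked cells of the 120 d to 150 d column are all positive, while the last column holds 1 marked rise (PGM1) and 2 marked falls (PGAM1 and ENO1).

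In the first steps of glycolysis, GPI, the isomerase that turns glucose 6-phosphate into fructose 6-phosphate, read 1840.4, 1729 and 1971 at 80 d, 1909, 2194 and 1956 at 100 d, 3003, 4943 and 3119 at 120 d, 16991, 10491 and 12060.2 at 150 d and then 11843, 12356 and 14253 at 230 d. The 80 d and 100 d arrays overlapped, each 120 d array was above them, and all 6 postnatal arrays lay above the 9 fetal ones without separating from each other. The rise from 120 d to 150 d was called (log2 fold change 1.85, SE 0.23, adjusted p = 0.00023), whereas the change of -0.01 from 150 d to 230 d was not. HK1, the ubiquitous hexokinase that traps glucose in the cell, ranged from 414 to 813 over the 15 arrays, overlapped between all neighbouring stages and changed by 0.15 (adjusted p = 0.48) over birth as a whole. Muscle hexokinase HK2 had no probe set under the annotation used here.

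Phosphofructokinase, the committed step of the pathway, was measured in its 3 isoforms. The muscle form PFKM read 1851, 1522 and 1794 at 80 d, 2077, 2447 and 2875 at 100 d, 4197, 3564 and 3097 at 120 d, 9084, 6525 and 7492 at 150 d and then 12914, 12339 and 11124 at 230 d. No array of any stage reached those of the next, and the gene rose across birth (log2 fold change 1.09, SE 0.19, adjusted p = 0.002) and over the fetal span (log2 fold change 1.07, SE 0.19, adjusted p = 0.0095). Its other 2 probe sets gave 1.17 and 0.92 across birth, both called. Over the fetal span they gave 1.27 (adjusted p = 0.0014) and 0.95 (adjusted p = 0.0102), the former called. From 150 d to 230 d they gave 0.84 (adjusted p = 0.0133) and 1.13 (adjusted p = 0.0036), the latter called. The representative gave 0.67 there (adjusted p = 0.062, not called). The liver form PFKL read 594, 354 and 446 at 80 d, 469, 390.2 and 409.7 at 100 d, 432, 478 and 415 at 120 d, 375, 339.8 and 251 at 150 d and then 416, 309 and 440.3 at 230 d, with the 150 d arrays below the 120 d arrays and all other neighbouring stages overlapping. Its change across birth was -0.47 (adjusted p = 0.16). The platelet form PFKP read 153, 122 and 119.5 at 80 d, 273, 162 and 113 at 100 d, 229, 149 and 161 at 120 d, 185, 145 and 197 at 150 d and then 159, 110.2 and 102 at 230 d. Its stages overlapped throughout and it changed by -0.12 (adjusted p = 0.64) over birth as a whole. The call for PFKM across birth was lost with quantile normalization (0.58, adjusted p = 0.075), with scaling to the hybridisation controls (0.44, adjusted p = 0.15) and without 120 d replicate 3 (0.98, adjusted p = 0.012). Its fetal call was lost in 12 of the 15 fits that left out 1 array, kept only without 100 d replicate 1 or 150 d replicate 1 or 2, with values from 0.95 to 1.17.

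**Figure D2:**
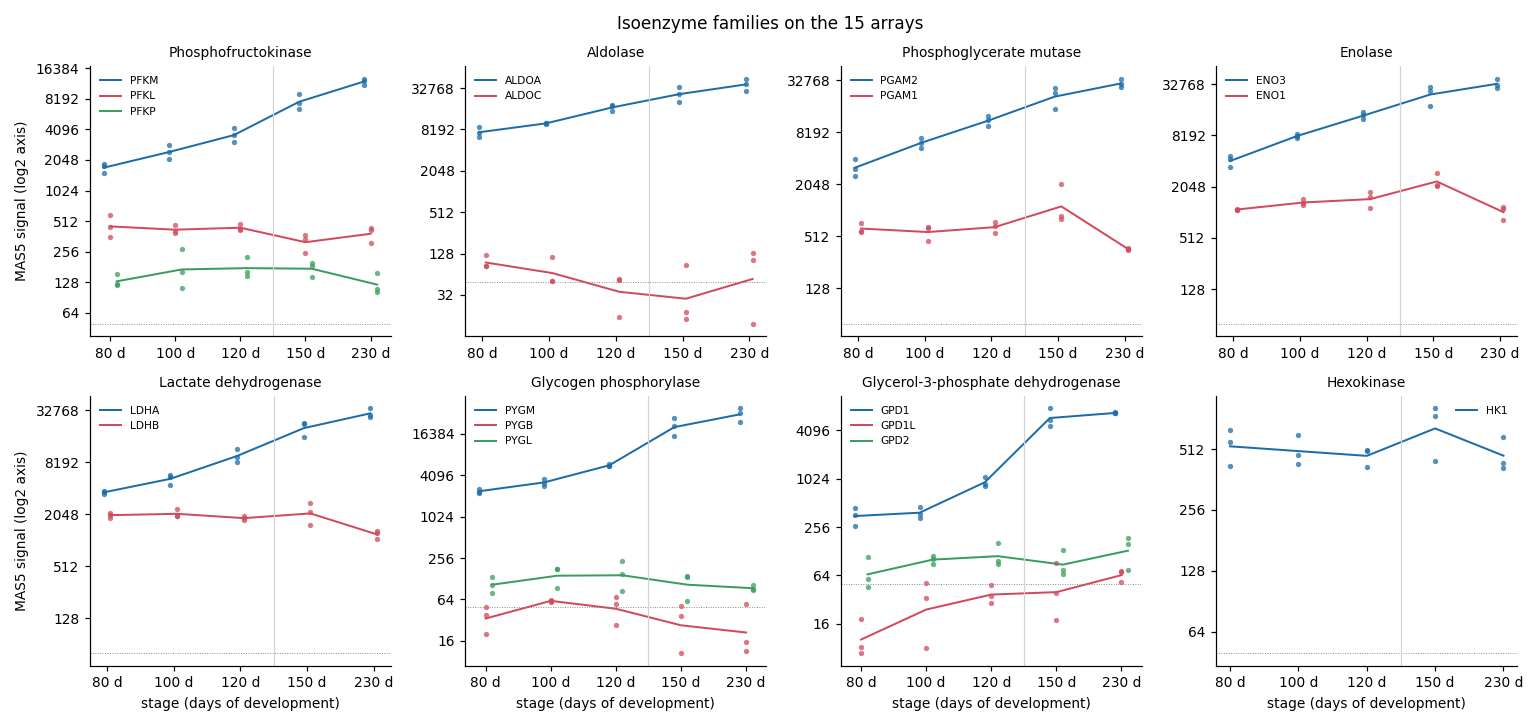
MAS5 signal on a log2 axis (y) by stage (x, evenly spaced) for the isoenzyme families, where points are single arrays, 3 per stage, lines join geometric means, the dotted line marks the signal of 50 used as filter and the vertical line marks birth. For each muscle form and for GPD1 all postnatal points lie above all fetal ones, while for each of their partners and HK1 they overlap, and heights of different probe sets are not comparable.

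From aldolase to pyruvate kinase, 7 of the 10 enzymes tested rose over birth as a whole and 0 fell. Over all probe sets 13.3% rose and 21.3% fell. ALDOA, the muscle form of the aldolase that splits fructose 1,6-bisphosphate, read 8904, 6354 and 7308 at 80 d, 10122, 10152 and 9784 at 100 d, 17866, 18252 and 15427 at 120 d, 34150.5, 20655 and 26959 at 150 d and then 37571, 29989 and 44885 at 230 d. Its arrays separated at every step up to 150 d, and the 150 d and 230 d arrays overlapped. The gene rose over the fetal span (log2 fold change 1.20, SE 0.22, adjusted p = 0.0095) and over birth as a whole (log2 fold change 1.53, SE 0.14, adjusted p = 2.7e-06), and its 0.64 across the 120 d to 150 d interval missed the threshold (adjusted p = 0.054). The brain form ALDOC read 123, 83.4 and 83.8 at 80 d, 114, 51.8 and 50.4 at 100 d, 53.3, 15.4 and 55.2 at 120 d, 86.4, 14.4 and 18.1 at 150 d and then 129, 12.2 and 104 at 230 d. It reached 50 on 11 of the 15 arrays, and from 120 d onwards each stage had arrays under 50. The fetal call for ALDOA was lost in 12 of the 15 fits without 1 array, kept only without 150 d replicate 1 or 2 or 230 d replicate 2, with values from 1.09 to 1.33.

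TPI1, the triosephosphate isomerase, read 2228, 1679 and 1846 at 80 d, 2319, 2508 and 2406 at 100 d, 5033, 5738 and 4113 at 120 d, 21416, 15596 and 14190.5 at 150 d and then 15152, 14606 and 15878 at 230 d. The 3 fetal stages did not overlap, and the postnatal arrays were above them all and overlapped each other. It rose over the fetal span (log2 fold change 1.37, SE 0.20, adjusted p = 0.002) and again across birth (log2 fold change 1.77, SE 0.20, adjusted p = 0.00011). Its fetal call was lost without 80 d replicate 2 or 3 or 120 d replicate 1 or 2, where the values were 1.28, 1.35, 1.35 and 1.26. GAPDH, the dehydrogenase of the oxidative step, read 14207, 8872 and 10069.9 at 80 d, 15725, 12845 and 12733 at 100 d, 24395, 22114 and 17878 at 120 d, 46179, 27931 and 36783 at 150 d and then 51765, 40117 and 59221 at 230 d. Fetal arrays stayed under all postnatal ones, and 80 d overlapped 100 d as 150 d did 230 d. The gene rose over birth as a whole (log2 fold change 1.53, SE 0.16, adjusted p = 7.4e-06), and its changes across the fetal span and the birth interval had adjusted p of 0.048 and 0.043. The 3 control probe sets for GAPDH, aimed at the 3' end, the middle and the 5' end of the transcript, gave 0.88, 0.88 and 0.82 over the fetal span, in which the actin ratio fell, beside 0.98 for its representative.

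PGK1, the first of the kinases that yield ATP, read 869, 1103 and 875 at 80 d, 621, 709 and 1214 at 100 d, 930.4, 2311 and 2034 at 120 d, 5602, 10547 and 16224 at 150 d and then 5152, 8515 and 16772 at 230 d. All 6 postnatal arrays were above the fetal ones, and neighbouring stages overlapped both before and after birth. It rose across birth (log2 fold change 2.59, SE 0.49, adjusted p = 0.0028), and this call was lost without 120 d replicate 1, 150 d replicate 2 or 150 d replicate 3 (2.19, 2.54 and 2.23, adjusted p of 0.013, 0.012 and 0.012) and with scaling to the hybridisation controls (1.94, adjusted p = 0.012). PKM, the pyruvate kinase that ends the pathway in muscle, read 366, 264 and 485 at 80 d, 304, 346 and 348 at 100 d, 669, 552 and 437 at 120 d, 3556, 643 and 1082 at 150 d and then 1216, 2017 and 3339 at 230 d. The signal of 150 d replicate 2 was under that of 120 d replicate 1, so these stages overlapped. PKM rose over birth as a whole (log2 fold change 2.04, SE 0.34, adjusted p = 0.00031) but not in any interval, its 120 d to 150 d change being 1.31 (adjusted p = 0.093).

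Phosphoglycerate mutase and enolase, which follow in the pathway, were each measured as a muscle and a ubiquitous form. PGAM2, the muscle mutase, read 4075, 2547 and 3101 at 80 d, 5352, 7124 and 6237 at 100 d, 11387, 12735 and 9607 at 120 d, 26707, 15381 and 23179.5 at 150 d and then 29548, 27177 and 34242 at 230 d. No 2 neighbouring stages overlapped, and the gene rose over the fetal span (log2 fold change 1.81, SE 0.24, adjusted p = 0.0013), with 0.92 (adjusted p = 0.017) across birth. The ubiquitous PGAM1 read 598, 576 and 732 at 80 d, 663, 635 and 453 at 100 d, 562, 747 and 671 at 120 d, 815, 2060.1 and 881 at 150 d and then 365, 356 and 379 at 230 d. Its fetal stages overlapped, its newborn arrays lay above all of them and its 230 d arrays lay below every other array. The fall from 150 d to 230 d was called (log2 fold change -1.64, SE 0.31, adjusted p = 0.0084), and the 120 d to 150 d difference of 0.80 was not (adjusted p = 0.081).

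ENO3, the muscle enolase, read 4634, 3436 and 4301 at 80 d, 8092, 8472 and 7533 at 100 d, 15402, 14058 and 12651 at 120 d, 30255, 18280.1 and 27297 at 150 d and then 32277, 29321 and 38023 at 230 d. Its arrays separated at every step except the last, and it rose over the fetal span (log2 fold change 1.77, SE 0.21, adjusted p = 5e-04), with 0.82 (adjusted p = 0.015) across birth. The ubiquitous enolase ENO1 read 1097, 1117 and 1087 at 80 d, 1317, 1456 and 1234 at 100 d, 1529.6, 1788 and 1136 at 120 d, 2085, 2130.5 and 2929 at 150 d and then 828, 1109.6 and 1174 at 230 d. The newborn arrays were the 3 highest, and the 230 d arrays overlapped those of 80 d and 120 d. From 150 d to 230 d ENO1 fell (log2 fold change -1.20, SE 0.21, adjusted p = 0.0071), while its 120 d to 150 d value was 0.69 (adjusted p = 0.037). Both falls rested on narrow margins. The call for PGAM1 was kept in 1 of the 15 fits that left out an array (without 150 d replicate 1) and the call for ENO1 in 2 (without 120 d replicate 2 or 3), with values from -1.88 to -1.21 and from -1.30 to -1.04, and neither passed with no filter on low signals (adjusted p = 0.022 and 0.02).

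Lactate dehydrogenase, which regenerates NAD from pyruvate and NADH, was measured as its muscle and heart subunits. LDHA, the muscle subunit, read 3796, 3514 and 3730.2 at 80 d, 4514, 5914 and 5519.7 at 100 d, 9519.9, 11628 and 8279 at 120 d, 22771, 15983 and 23356 at 150 d and then 29291, 27494 and 34659.7 at 230 d. All neighbouring stages were apart, and it rose over the fetal span (log2 fold change 1.40, SE 0.20, adjusted p = 0.0021), across birth (log2 fold change 1.07, SE 0.20, adjusted p = 0.0028) and over birth as a whole (2.12, adjusted p = 1.1e-07). LDHB, the heart subunit, read 2036, 2149 and 1839 at 80 d, 2333, 1943 and 1976 at 100 d, 1842, 1966 and 1750 at 120 d, 2183, 2743 and 1544 at 150 d and then 1063, 1299 and 1244 at 230 d. Its first 4 stages overlapped, and its 230 d arrays were below all others (-0.81, adjusted p = 0.035, not called). The other 2 probe sets annotated to LDHA did not run alike: one rose across birth from a geometric mean of 195 to 815 (log2 fold change 2.06) without moving over the fetal span (0.09), and the other went from 304 to 160.01 (-0.93, adjusted p = 0.035). Over birth as a whole the former rose by 2.05 (adjusted p = 7.69e-07) and the latter fell by 0.76 (adjusted p = 0.00432), opposite to the representative, and their gene name was taken from the array's annotation without a check of sequence. The LDHA call across birth was lost with quantile normalization (0.56, adjusted p = 0.057), with scaling to the hybridisation controls (0.42, adjusted p = 0.17), and without 120 d replicate 1 or 3 or 150 d replicate 1 or 3 (0.96 to 1.06), and its fetal call was lost without 80 d replicate 2 or 3 or 120 d replicate 2 (1.27 to 1.41).

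In the glycerol phosphate branch, GPD1, the cytosolic glycerol-3-phosphate dehydrogenase that links glycolysis to lipid synthesis and to the NADH shuttle, read 263, 447 and 366 at 80 d, 335, 376 and 458 at 100 d, 832, 1080.1 and 876 at 120 d, 7708, 4637 and 5564 at 150 d and then 6886, 6694 and 6662 at 230 d. The 80 d and 100 d arrays overlapped, the 120 d arrays were above both, and the lowest postnatal array read 4637. Of all enzymes it had the lowest adjusted p over birth as a whole (log2 fold change 3.65, SE 0.15, adjusted p = 5.8e-09), and the rise of 2.66 across the birth interval was called in each of the 15 fits without 1 array. Its fetal call (1.40, adjusted p = 0.0064) was lost in 10 of them and kept without 80 d replicate 2, 100 d replicate 1 or 3, or 150 d replicate 1 or 2 (values 1.19 to 1.57). The GPD1-like gene GPD1L read 6.8, 8.3 and 18.5 at 80 d, 51.7, 33.3 and 8 at 100 d, 35.4, 48.4 and 29.2 at 120 d, 17.6, 39 and 90 at 150 d and then 52.9, 70.2 and 71.9 at 230 d. Only 5 of its arrays reached 50, its neighbouring stages overlapped while its 230 d arrays lay above all 9 fetal ones, and it was not called in any comparison. The mitochondrial GPD2, partner of GPD1 in the shuttle, read 57.7, 107 and 46.3 at 80 d, 101, 89.8 and 111 at 100 d, 95.8, 88.3 and 161 at 120 d, 74.3, 66.7 and 133 at 150 d and then 155, 188 and 75.2 at 230 d, with every pair of neighbouring stages overlapping.

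PGP, which dephosphorylates glycerol 3-phosphate and phosphoglycolate, had the largest change across birth of the set. It read 219.7, 200.3 and 180 at 80 d, 223, 197 and 197 at 100 d, 260, 400.1 and 116 at 120 d, 9849.6, 4158 and 4500.2 at 150 d and then 2062, 2209 and 2604 at 230 d. The fetal stages overlapped, the lowest newborn array was above all other stages, and the 230 d arrays were below the newborn and above the fetal ones. Its log2 fold change across birth was 4.63 (SE 0.40, adjusted p = 3e-05), and the later difference of -1.32 was not called (adjusted p = 0.071). A second probe set of PGP went from 59.1 to 457 across birth (2.95, adjusted p = 0.0038) and differed by -0.15 afterwards, so the lower signal at 230 d was not shared by both.

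**Figure D3:**
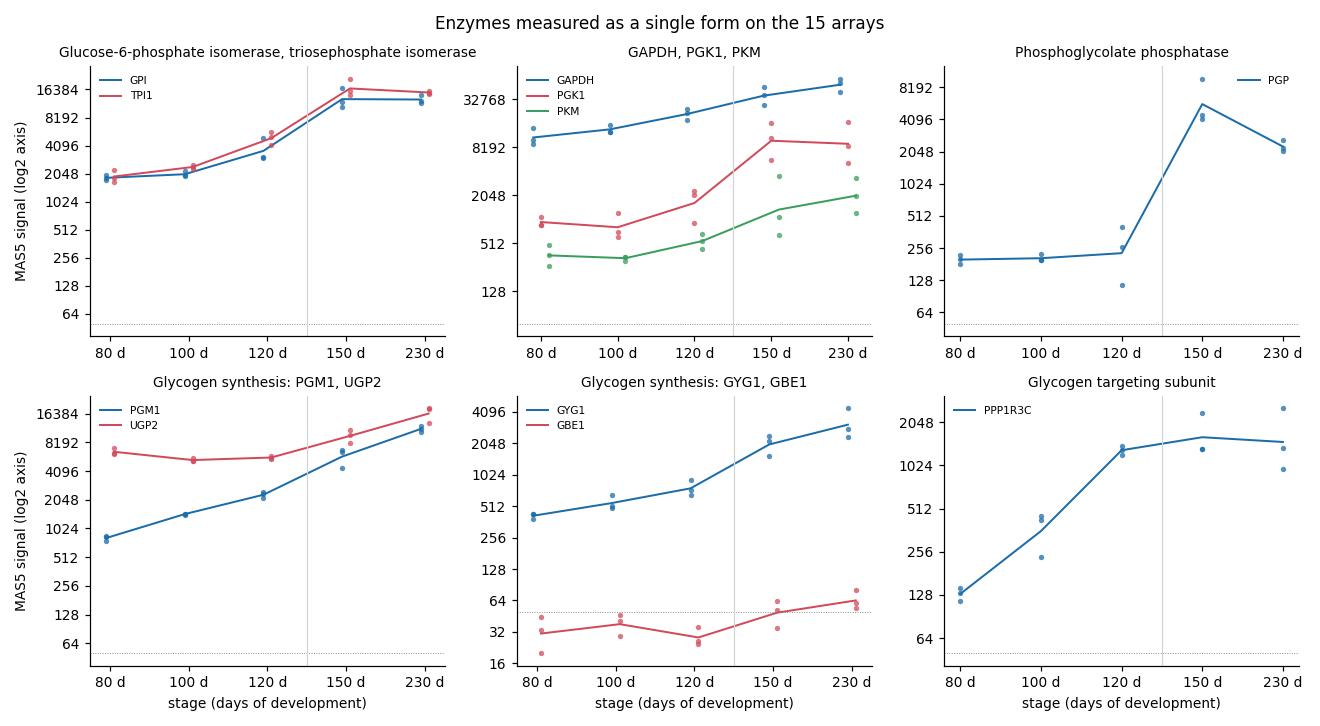
MAS5 signal on a log2 axis (y) by stage (x, evenly spaced) for enzymes measured as a single form, with single arrays as points (3 per stage), geometric means joined by lines, a dotted line at a signal of 50 and a vertical line at birth. PGP steps up from 115.5 to 400.1 on the 120 d arrays to 4158 to 9850 at 150 d. PPP1R3C makes its climb before birth, and UGP2 moves after 120 d.

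Of the 5 glycogen synthesis genes tested, PGM1, UGP2, GYG1 and PPP1R3C rose over birth as a whole, where 13.3% of all probe sets rose. Their signals were over 50 on all arrays, and GBE1 is described apart. PGM1, the phosphoglucomutase that moves phosphate between glucose 6-phosphate and glucose 1-phosphate, read 836, 758 and 844 at 80 d, 1463, 1426 and 1455 at 100 d, 2116, 2457 and 2368 at 120 d, 6447, 4415 and 6865 at 150 d and then 10632, 11188 and 12181 at 230 d. Its 5 stages formed 5 separate ranges in order of age, and it was called over the fetal span (log2 fold change 1.51, SE 0.18, adjusted p = 0.00054), across birth (log2 fold change 1.33, SE 0.18, adjusted p = 0.00039) and from 150 d to 230 d (log2 fold change 0.96, SE 0.18, adjusted p = 0.0088). The last call was kept in 1 of the 15 fits without an array (without 150 d replicate 3, values 0.77 to 1.08). The call across birth was lost with scaling to the hybridisation controls (0.68, adjusted p = 0.027). A second probe set of PGM1 gave 1.27, 0.96 and 0.87 in these comparisons, with adjusted p from 0.033 to 0.103.

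UGP2, which makes UDP-glucose, the donor for glycogen, read 6384, 6124 and 7083 at 80 d, 5594, 5249 and 5180.3 at 100 d, 5899, 5625 and 5512 at 120 d, 8046, 9870.2 and 11009.7 at 150 d and then 18294, 12978 and 18617 at 230 d. The 80 d arrays lay above the 120 d arrays, the 150 d arrays above all fetal ones and the 230 d arrays above those of 150 d. It rose over birth as a whole (log2 fold change 1.11, SE 0.12, adjusted p = 9e-06), a call lost with scaling to the hybridisation controls (0.41, adjusted p = 0.04). GYG1, glycogenin, the self-glucosylating primer, read 430.5, 385 and 429 at 80 d, 658, 509 and 492 at 100 d, 658, 734 and 901 at 120 d, 2401, 1544 and 2139 at 150 d and then 2343, 4424 and 2832 at 230 d. All postnatal arrays were above the fetal ones, 150 d and 230 d overlapped, and the gene rose across birth (log2 fold change 1.40, SE 0.25, adjusted p = 0.0021). That call was lost with scaling to the hybridisation controls (0.74, adjusted p = 0.059) and stood at the threshold without 120 d replicate 1 (1.29, adjusted p = 0.01).

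GBE1, the branching enzyme, read 44.6, 19.9 and 33.2 at 80 d, 40.8, 46 and 29.2 at 100 d, 24.6, 35.4 and 26.1 at 120 d, 52.1, 63.8 and 35.2 at 150 d and then 54.6, 60.1 and 80.2 at 230 d. All 9 fetal arrays were under 50 and 5 of the 6 postnatal arrays were above it, so GBE1 passed the filter through the stages where it was higher, which favours its call (0.80, adjusted p = 0.0066). With the fetal level taken as 50 the rise was at least 1.12-fold. The call was lost in 10 of the 15 fits without 1 array (kept without 80 d replicate 1, 100 d replicate 2, 120 d replicate 2, 150 d replicate 3 or 230 d replicate 1, values 0.69 to 0.92), with no filter on low signals (adjusted p = 0.014) and with scaling to the hybridisation controls (0.11).

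PPP1R3C, a subunit that brings protein phosphatase 1 to glycogen, differed in its timing. It read 144, 132 and 116 at 80 d, 234, 425 and 458 at 100 d, 1317, 1404 and 1206 at 120 d, 2361, 1322 and 1338 at 150 d and then 960.3, 1349.6 and 2561 at 230 d. The 3 fetal stages were apart in rising order, the 120 d arrays reached the range of the postnatal ones, and 120 d, 150 d and 230 d overlapped. Over the fetal span it rose (log2 fold change 3.33, SE 0.36, adjusted p = 0.00023), the largest fetal change in the set, whereas across birth it changed by 0.30 (adjusted p = 0.59). Its other 2 probe sets rose over the fetal span by 2.75 and 1.94, both called, and gave 0.32 and 0.60 across birth, neither called. The fetal call was kept in all 11 alternatives and all 15 fits without 1 array.

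Glycogen breakdown was represented here by the 3 phosphorylases. The phosphorylase kinase subunits PHKA1, PHKB and PHKG1 had no probe set under the annotation used, and PHKA2 was not tested. The study's own lists held PHKA1 and PHKB among genes marked up between 120 d and 150 d. They held GYS1, the glycogen synthase without a probe set here, among them too. PYGM, the muscle phosphorylase that releases glucose 1-phosphate, read 2596, 2279 and 2324 at 80 d, 3161, 3659 and 2891 at 100 d, 5606, 5950.5 and 5586 at 120 d, 27440.2, 14994 and 20939 at 150 d and then 32788, 24426 and 38429 at 230 d. Each stage up to 150 d was apart from the one before, and the 150 d and 230 d arrays overlapped. It rose across birth (log2 fold change 1.84, SE 0.23, adjusted p = 0.00025), a call kept in each fit without 1 array, and over the fetal span (1.25, adjusted p = 0.0099), a call lost in 12 of those 15 fits and kept without 150 d replicate 1 or 2 or 230 d replicate 2 (1.22 to 1.31). The brain form PYGB read 38.5, 49.8 and 20.2 at 80 d, 60.9, 59.2 and 63.3 at 100 d, 69.9, 27.3 and 54.2 at 120 d, 10.5, 50.7 and 36.9 at 150 d and then 15.2, 11.3 and 55.3 at 230 d. It reached 50 on 7 arrays and overlapped between neighbouring stages except 80 d and 100 d. The liver form PYGL read 80.2, 105 and 138 at 80 d, 93.1, 175 and 175 at 100 d, 85.7, 148 and 234 at 120 d, 137, 139 and 60.9 at 150 d and then 87.6, 102 and 90.8 at 230 d, with all neighbouring stages overlapping, and neither form was called in any comparison. A second probe set of PYGL went the other way, by 0.28 across birth and 0.28 over birth as a whole, neither called. The representative gave -0.46 and -0.38, and the ratios to PYGL given below rest on it.

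To set the muscle forms, and GPD1, directly against related enzymes, the log2 ratio of each pair was taken on every array and its change was tested in the same fit. Of 13 pairs planned, 10 had both probe sets tested. The partner was under 50 on 4 arrays for ALDOC, 8 for PYGB and 10 for GPD1L, so no change is given for these 3 pairs. In the other 7 the partner reached 50 on at least 14 arrays, and 7 of 7 ratios rose over birth as a whole, by 1.62 to 3.41. The largest of them was GPD1 over GPD2 at 3.41 (SE 0.27, adjusted p = 8.1e-07), followed by PYGM over PYGL at 3.22 (SE 0.30, adjusted p = 3e-06), and the smallest was ENO3 over ENO1 at 1.62 (SE 0.15, adjusted p = 3.3e-06). Those for PFKM were 2.29 (SE 0.16, adjusted p = 3.3e-07) over PFKL and 2.08 (SE 0.22, adjusted p = 7.8e-06) over PFKP. A change in a ratio does not depend on how arrays are scaled by a constant.

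The ratios did not all move between 120 d and 150 d. In the 120 d to 150 d interval 3 of the 7 rose: PFKM over PFKL by 1.56 (SE 0.25, adjusted p = 0.0011), PYGM over PYGL by 2.30 (SE 0.47, adjusted p = 0.0043) and GPD1 over GPD2 by 3.01 (SE 0.42, adjusted p = 0.00046). The ratios of PGAM2 to PGAM1 and of ENO3 to ENO1 gave 0.13 and 0.13 there, with their arrays overlapping and neither called. The value for PGAM2 over PGAM1 rested on 150 d replicate 2, without which it was 0.79 (adjusted p = 0.078), and without 150 d replicate 1 it was -0.28. That for ENO3 over ENO1 ran from -0.10 to 0.28 over the fits without 1 array. In the next interval ENO3 over ENO1 rose by 1.62 (SE 0.24, adjusted p = 0.0025), and PGAM2 over PGAM1 gave 2.15 (SE 0.44, adjusted p = 0.014), or 1.49 (adjusted p = 0.016) without 150 d replicate 2 and 2.56 (adjusted p = 0.0087) without 150 d replicate 1. Over the fetal span ENO3 over ENO1 was the only called ratio of the 7 (1.37, adjusted p = 0.0069), and it was lost in 11 of the 15 fits without 1 array, kept without 150 d or 230 d replicate 1 or 2 (1.23 to 1.51). PYGM over PYGL across birth was lost without 120 d replicate 2 or 3 or 150 d replicate 1 or 3 (1.89 to 2.31) and with quantile normalization (1.62, adjusted p = 0.024), which also took PFKM over PFKL to 0.92 (adjusted p = 0.033). ENO3 over ENO1 from 150 d to 230 d was lost without 150 d replicate 2 (1.47, adjusted p = 0.011) and stood at the threshold without 230 d replicate 1 (1.48, adjusted p = 0.01).

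**Figure D4:**
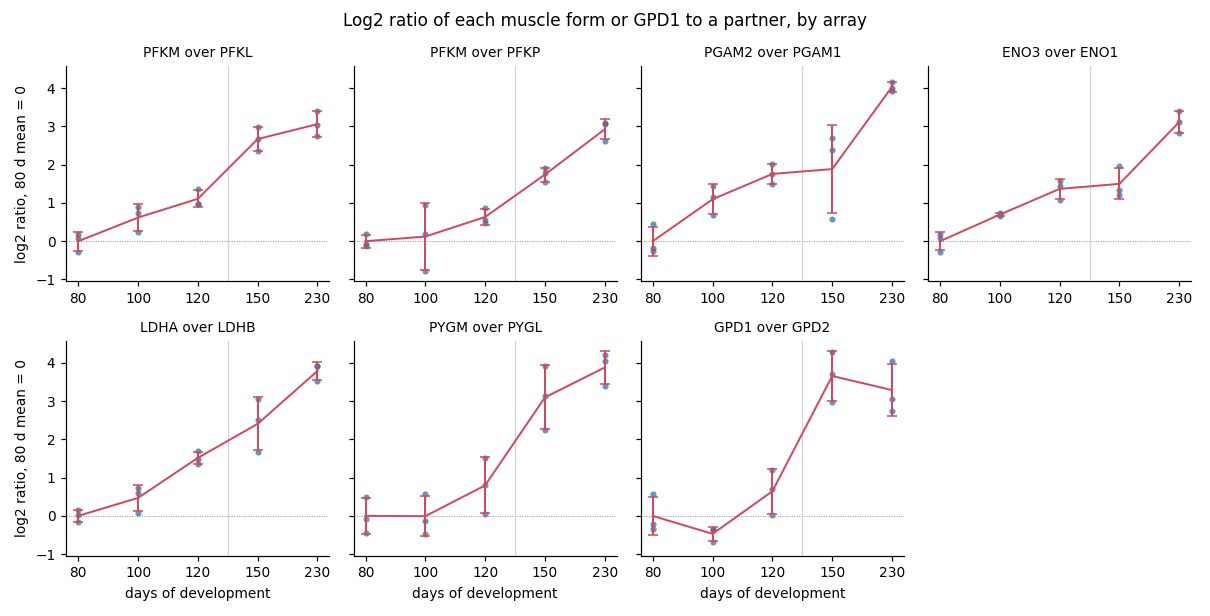
Log2 ratio of the 2 signals of each of the 7 pairs on each array (points, 3 per stage), set to a mean of 0 at 80 d (y), by stage (x, evenly spaced), with stage means joined and bars of 1 SD. In each of the 7 panels both postnatal means stand above the 3 fetal means, and the arrays of 120 d and 150 d overlap for PGAM2 over PGAM1, ENO3 over ENO1 and LDHA over LDHB.

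The enzymes that rose over birth as a whole, GBE1 left aside because it was under 50 at 80 d, also differed in how much of the log2 rise from 80 d to 230 d was in place at 120 d, which is given here without a test. PPP1R3C had 94.6% of its rise of 3.52 in place before birth, ENO3 58.9%, PGAM2 55.8% and ALDOA 52.0%. LDHA, TPI1 and GAPDH stood at 44.3% to 46.0%, PGM1, PFKM, GPI, PYGM, GPD1 and GYG1 at 30.1% to 39.7%, and PGK1 and PKM at 24.4% and 24.0%. PGP had 5.70% in place, and UGP2 was below its 80 d mean at 120 d (-15.0%). By 150 d TPI1, GPI, PGK1 and PPP1R3C had completed their rise (100.5% to 104.8%). PGP was past its 230 d mean at 137.5%, whereas UGP2 had reached 41.5%. The full rise from 80 d to 230 d was largest for GPD1, 19.3-fold, then PGM1, 13.9-fold, and PYGM, 13.1-fold, all from geometric means of 3 arrays, while UGP2 rose 2.52-fold.

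**Figure D5:**
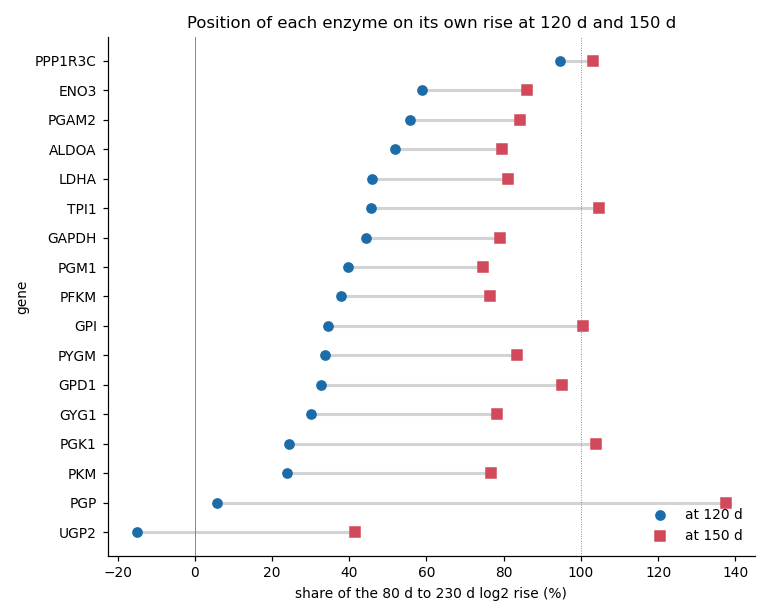
Share of each enzyme's own log2 rise from 80 d to 230 d (x, percent) in place at 120 d (circles) and at 150 d (squares), for the 17 enzymes that rose over birth as a whole and were over 50 at 80 d (y), from geometric means of 3 arrays per stage. PPP1R3C is at 94.6% by 120 d, most enzymes lie between 24.0% and 58.9%, and PGP is at 137.5% at 150 d.

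Beyond these enzymes, 44 other genes of the pathway had been listed, of which 24 were tested. SLC2A4, the insulin-responsive glucose transporter, had a probe set but did not reach the filter. Over birth as a whole 9 of the 24 rose and 2 fell (median 0.24), against 13.3% and 21.3% of all probe sets. Between 120 d and 150 d 4 rose and none fell, against 4.41% and 6.77%. Of these 4, PFKFB1 and PFKFB4 passed the filter only through postnatal arrays. Of the 2 that fell over birth as a whole, SLC2A3 passed only through fetal arrays. The filter favours these calls, which the counts include. FBP2, the muscle fructose bisphosphatase that runs opposite to phosphofructokinase, read 23, 3.5 and 31.9 at 80 d, 416, 492 and 359 at 100 d, 1439.9, 1116 and 1782 at 120 d, 8842, 7401 and 6862 at 150 d and then 11549.7, 10769.9 and 12189 at 230 d. All 80 d arrays were under 50 and each later stage was apart from the one before. Its rise from 80 d to 100 d was called (adjusted p = 0.0032) and was at least 8.37-fold with the 80 d level taken as 50.

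The PFKFB enzymes make and break fructose 2,6-bisphosphate, an activator of phosphofructokinase. PFKFB4 read 30.5, 39.6 and 55.3 at 120 d and then 309, 288 and 194 at 150 d, at least 5.00-fold with 120 d arrays under 50 taken as 50 (adjusted p = 0.0052). PFKFB1 read 5.6, 29 and 1.5 at 120 d and then 151, 98.4 and 172 at 150 d, at least 2.74-fold on the same basis (adjusted p = 0.0041). In both the newborn arrays were above all 120 d arrays, and both passed the filter only through their postnatal arrays, which favours these calls. PFKFB3 rose later and read 133, 189 and 118 at 150 d and then 1416, 2593 and 396 at 230 d (log2 fold change 2.98, SE 0.50, adjusted p = 0.0053). Across birth SLC16A3, the lactate exporter of glycolytic fibres, rose by 1.48 (adjusted p = 0.00056) and PPP1CB, a catalytic subunit of protein phosphatase 1, by 0.97 (adjusted p = 0.00086). The 2 genes that fell over birth as a whole, named after their values were seen, were the glucose transporters SLC2A1 (log2 fold change -1.61, SE 0.33, adjusted p = 0.0013) and SLC2A3 (adjusted p = 0.0011). SLC2A1 ranged from 249.7 to 312 at 80 d, 144.5 to 178 at 100 d and 101 to 169 at 120 d. It then ranged from 62.9 to 136.5 at 150 d and 13.5 to 79.3 at 230 d. All 80 d arrays lay above the later ones, and neighbouring stages from 100 d onwards overlapped. Its fall was not called in any neighbouring interval. SLC2A3 ranged from 4.9 to 93.7 on the fetal and from 3 to 20.9 on the postnatal arrays, so it passed the filter only through fetal arrays and no fold is given.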

How the data were processed

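Per the study's methods and the labels, total RNA from 15 animals was read on Affymetrix Bovine Genome Arrays, and the authors summarised each probe set with MAS5 (version not given in the sources used here), background-corrected and scaled to a mean of 200 per array. The deposited values are these signal intensities on a linear scale, without detection calls. Gene names came from the array's platform annotation, which can be old. Here signals under 0.1 were set to 0.1 (2 values), 112 control probe sets were left out, and 15998 of 24016 probe sets were kept, those reaching 50 on 3 or more arrays. Log2 signals were fitted with limma 3.58.1 in R 4.3.3, 1 coefficient per stage over all 15 arrays (10 residual degrees of freedom), with Benjamini-Hochberg adjustment over all probe sets kept, and calls at 0.01. Isoenzyme log ratios were added as rows of that fit. Members, gene lists and pairs were chosen with earlier results of these data known. Every tested member could be named, and of the other pathway genes those called in a neighbouring interval. The procedure was tested on simulated data. Only 3 animals per stage limit the precision. Other scalings, filters, offsets, sample subsets and a replicate block were tried. Sequences were not analysed here.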

Additional observations from a re-analysis of the deposited data

How the results depend on the processing

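Of 56 single calls (41 of enzymes and 15 of ratios, including the 3 pairs with a dim partner), none reversed under any alternative, and 30 fell under the threshold in at least 1 alternative other than leaving out an array, 27 of them when only the arrays of the contrast were fitted. For enzymes, fitting only those arrays left 0 calls across birth (10 otherwise), 0 from 150 d to 230 d (3 otherwise), 1 over the fetal span (10 otherwise) and 0 in any interval (12 otherwise). For ratios it left 0 across birth (3 otherwise), 0 from 150 d to 230 d and 0 over the fetal span (1 otherwise in both). Fewer arrays then estimate the spread, and for fetal against postnatal this alternative equals the fit of all arrays. Scaling to the hybridisation controls, chosen after seeing the data, gave 6 enzymes across birth (5 higher and 1, PFKL, lower, against 10 higher and 0 lower), 0 from 150 d to 230 d and 6 in any interval, and 0 ratios over the fetal span. No filter on low signals gave 0 enzymes from 150 d to 230 d, 6 over the fetal span and 0 ratios there. The trend and robust options of limma, robust alone for ratios, gave 3 enzymes from 100 d to 120 d (0 otherwise) and 5 from 150 d to 230 d, as did a threshold of 0.05 (5). Quantile normalization gave 1 ratio across birth and 2 over the fetal span, an offset of 16 gave 5, 2 (150 d to 230 d) and 2 (fetal span), and a stricter filter of 100 gave 3 from 150 d to 230 d and 2 over the fetal span. The cause of these differences was not tested.

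Leaving out 1 array gave 7 (without 120 d replicate 1) to 11 enzymes across birth, 0 to 1 from 150 d to 230 d, 4 (without 80 d replicate 3) to 10 over the fetal span, 17 to 18 over birth as a whole and 7 (without 120 d replicate 1) to 11 in any interval, and 0 in the first 2 intervals. For ratios it gave 2 to 5 across birth, 0 to 2 from 150 d to 230 d, 0 to 3 over the fetal span and 9 to 10 over birth as a whole. Of the 56 single calls 38 held in all 15 such fits.

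The replicate numbers do not pair the samples, since the animals differed between stages. Same-numbered arrays correlated at -0.05 to 0.21 in their deviations from stage means (6 of 30 over 0.1), and 9 of 15 arrays matched best an array of their own number. With the replicate block 0 enzymes were called from 150 d to 230 d, 6 over the fetal span, 10 across birth and 17 over birth as a whole, and 3, 1, 1 and 10 ratios were called across birth, from 150 d to 230 d, over the fetal span and over birth as a whole.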
